A study of Homo sapiens with 6 samples.

Results

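Expression of 10 genes that encode surface antigens was compared between TAE684-resistant SY5Y-TR1 cells and the parental SH-SY5Y cells from which they were selected. The genes were CD24, CD44, NT5E, ENG, THY1, ALCAM, MCAM, PROM1, CD9 and FAP. They were taken by name from the probe sets of the array that carry 1 gene symbol, and all 10 were measured among 19775 genes. Both lines are human neuroblastoma (NB) cells that carry the F1174L mutation of the receptor tyrosine kinase ALK. SY5Y-TR1 cells, an expanded subclone, were kept in medium with 1 μM of the ALK inhibitor TAE684, and SH-SY5Y cells in the same medium without it. The resistant line, its clonal origin and the drug in its medium therefore cannot be told apart in these data. Each line was measured on 3 GeneChip U133 Plus arrays, named biological replicates in the labels and in the study's methods, while the series' design text speaks of replicates run on a single sample of each line. How the cultures were kept apart is not stated, and p-values here measure only the spread between these arrays, which may be technical.

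These antigens are used to sort and name cells. CD24 is a small, heavily glycosylated protein held in the membrane by a glycosylphosphatidylinositol (GPI) anchor and is abundant on neural and many epithelial progenitors. CD44 is the main cell surface receptor for hyaluronan, a matrix polysaccharide, and the pair CD24-low and CD44-high is a common description of mesenchymal-like carcinoma cells. NT5E (CD73), ENG (CD105) and THY1 (CD90) form the standard positive panel for cultured mesenchymal stromal cells. ALCAM (CD166) and MCAM (CD146) are immunoglobulin-family adhesion molecules often added to that panel, PROM1 (CD133) is used as a stem cell antigen, CD9 is a tetraspanin, and FAP is a prolyl peptidase of activated fibroblasts.

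The authors' values are log2 signals, so a difference of 1 is a 2-fold change. A gene was called higher or lower in SY5Y-TR1 when the fold was at least 2 and the Benjamini-Hochberg adjusted p from limma over all 19775 genes was under 0.05. In these arrays every gene past the fold limit also passed the p limit, so that the fold decided each call. A background level of 5.83 was set from genes of unrelated tissues, and where a line lay at or under it on every array the fold is given as a bound. Replicate arrays had a Pearson's r of 0.997 to 0.998 across probe sets and the lines 0.959 to 0.960, and the median SD between replicates was 0.07 in each line. Precision is limited by having 3 arrays a line. Because RNA was taken from whole cultures, fewer cells with a transcript and less of it per cell cannot be told apart.

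Of the 10 genes, 4 were called higher in SY5Y-TR1 (CD44, NT5E, THY1 and FAP), 1 was called lower (CD24) and 5 were not called (ENG, ALCAM, MCAM, CD9 and PROM1). Over all genes 11.4% were called, 5.36% as higher and 5.99% as lower, and among genes above the background level in a line 16.7% were called. CD24, CD44 and FAP were selected on the log2 signals of these same arrays, with their differences between the lines already known, so their values are a description and carry no p here. The other 7 joined a set that was put together with earlier results of these arrays known, and their p-values, from the fit over all genes, are no independent evidence. Among the other 7 genes, 2 were higher, none was lower and 5 were not called by limma. The methods' t-test also called none of the 7 lower. By limma, MCAM and PROM1 lay lower with an unadjusted p under 0.05 but under the fold limit. The arrays of the lines did not overlap for 9 of the 10 genes, 6 of them with SY5Y-TR1 above and 3 with it below. This was common on these arrays, since 59.8% of all genes showed no overlap, 32.6% with SY5Y-TR1 above and 27.2% with it below. Each gene is represented by its brightest probe set over the 6 arrays, and all but PROM1 exceeded the background level in both lines or, for CD24, in SH-SY5Y.

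**Figure D1:**
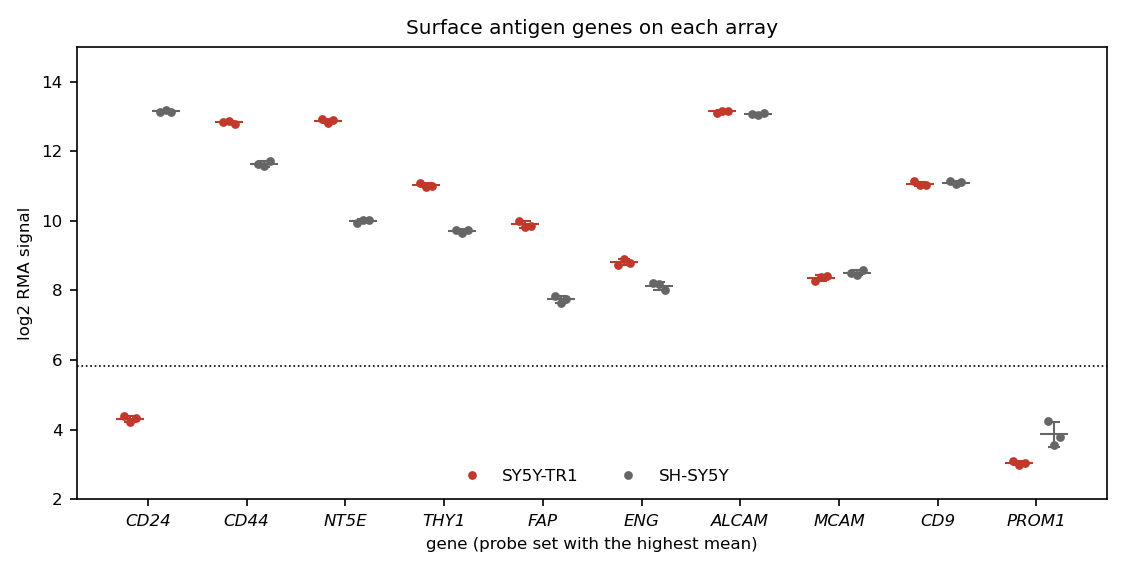
Log2 RMA signal (y axis) of each surface antigen gene (x axis, brightest probe set) on each array; points stand for single arrays of SY5Y-TR1 (red) and of SH-SY5Y (grey), horizontal and vertical bars give mean and SD, and dots mark the background level (5.83). CD24 lies at 4.31 in SY5Y-TR1 and at 13.15 in SH-SY5Y, whereas ALCAM and CD9 stand at nearly the same level in both lines.

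CD24 gave log2 signals of 4.39, 4.22 and 4.32 in SY5Y-TR1, against 13.13, 13.18 and 13.14 in SH-SY5Y. The signal was thus far above the background level on the parental arrays and under the background level on every resistant array. The log2 fold change was -8.84 (standard error 0.05), and SY5Y-TR1 was at least 159-fold lower when the background level stands for its signal. By log2 fold change it ranked 1 of 19775 genes from the lowest. All 6 CD24 probe sets were lower, with log2 fold changes from -8.88 to -5.41 (among all probe sets of the array 4.58% were called lower, 3.79% higher and 8.37% in all), and none of them was above the background level on any SY5Y-TR1 array. Their bounds ran from at least 13.0-fold for 209772_s_at to at least 159-fold for 216379_x_at. All 6 have names that mark probes shared between transcripts, so no CD24 probe set free of that mark was measured. The smallest of the 6 differences was in 209772_s_at, with 4.12 ± 0.33 in SY5Y-TR1 against 9.53 ± 0.03 in SH-SY5Y (SD, 3 arrays a line).

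The genes whose pattern over the 6 arrays lay closest to that of CD24 were DLK1, C7, TFAP2B, RET and LGR5. Their Euclidean distances were 0.79, 1.09, 1.26, 1.87 and 1.88 between log2 signals centred on each gene's mean. With close replicates, this distance mostly measures how far 2 fold changes differ. As CD24 had the largest decrease, the 5 genes are other large decreases, with log2 fold changes of -8.36, -8.00, -7.84, -7.32 and -7.35. Whether they share any regulation with CD24 was not tested. DLK1, a Notch-related membrane protein of sympathoadrenal cells, averaged 3.59 ± 0.45 in SY5Y-TR1 against 11.95 ± 0.03 in SH-SY5Y (SD, 3 arrays a line). TFAP2B, a transcription factor of sympathetic neuroblasts, averaged 3.71 ± 0.28 in SY5Y-TR1 against 11.55 ± 0.08 in SH-SY5Y (SD, 3 arrays a line). Like CD24, all 5 were under the background level on every SY5Y-TR1 array, with means of 3.57 to 4.82, so the distances set log2 signals under that level beside each other. The bounds differed more widely, from at least 33.2-fold lower for RET to at least 80.8-fold lower for LGR5.

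RefSeq promoter windows on GRCh38.p14 matched 8 of the 10 genes, with 16 windows among them, and the 250 bases before a start site are shown for CD24, which was lower, and for CD44 and NT5E, which were higher. Capitals mark the GC box, GGGCGG or CCGCCC on the other strand, the letters bound by SP1-type factors. The CD24 window is chr6:106975628-106975877 on the minus strand, the CD44 window chr11:35138921-35139170 on the plus strand and the NT5E window chr6:85449833-85450082 on the plus strand.
CD24: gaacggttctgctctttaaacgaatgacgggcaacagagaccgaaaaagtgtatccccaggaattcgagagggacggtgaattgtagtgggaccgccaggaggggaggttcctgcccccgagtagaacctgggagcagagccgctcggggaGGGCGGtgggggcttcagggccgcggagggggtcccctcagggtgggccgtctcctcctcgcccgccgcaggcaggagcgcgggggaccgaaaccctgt
CD44: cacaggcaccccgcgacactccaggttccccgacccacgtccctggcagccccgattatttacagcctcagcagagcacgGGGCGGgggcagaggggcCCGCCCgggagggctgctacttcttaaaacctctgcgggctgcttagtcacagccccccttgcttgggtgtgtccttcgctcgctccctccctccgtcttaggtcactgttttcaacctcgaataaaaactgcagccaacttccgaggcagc
NT5E: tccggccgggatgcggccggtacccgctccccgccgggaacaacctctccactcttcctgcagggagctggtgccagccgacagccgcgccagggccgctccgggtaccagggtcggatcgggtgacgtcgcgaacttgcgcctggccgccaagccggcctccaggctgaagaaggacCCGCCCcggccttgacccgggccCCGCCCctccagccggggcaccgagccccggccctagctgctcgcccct
The CD24 window holds 1 GC box and the CD44 and NT5E windows 2 each, and 42.6% of all 35116 windows hold at least 1. None of these 3 windows holds the E-box letters CAGGTG, which SNAI- and ZEB-type repressors bind and which were sought on both strands. None holds the AP-1 letters TGANTCA, read alike on both strands, and no motif contains another. The E-box is found in 17.5% of all windows and the AP-1 letters in 6.57%. Another CD24 start site has 1 such E-box at the upstream end of its window, at chr6:106974260-106974289 on the minus strand, shown with the E-box in capitals.
CD24, other start: cCAGGTGactacttcccactttcacccaga
In all, 7 of the 16 windows of these genes hold the E-box, 1 the AP-1 letters and 9 a GC box. The E-box windows belong to CD24, ALCAM, MCAM, CD9 and PROM1, and PROM1 has more than 1 of them. Of these genes only CD24 was called. Several genes have more than 1 start site, so windows are not separate genes, and these counts were not tested against the shares of all windows. A match describes letters only, and binding was not measured.

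CD44 read 12.86, 12.88 and 12.80 in SY5Y-TR1, against 11.63, 11.56 and 11.72 in SH-SY5Y. In both lines the signal stood well over background, and every resistant array lay above every parental one. The log2 fold change was 1.21 (standard error 0.05), a 2.31-fold difference. CD44 had 13 probe sets, the most of the 10 genes, and the calls followed their signal over background. The 7 that were above the background level on all 6 arrays were all called higher, with folds from 2.31 for the brightest, 212063_at, to 3.56 for 204489_s_at. The probe set that stands for the gene thus gave the smallest difference of the 7. The other 6 were not called, and 5 of them were under the background level on all 6 arrays. The sixth, 229221_at, read 5.73, 5.58 and 5.89 in SY5Y-TR1 and 5.59, 5.26 and 5.31 in SH-SY5Y, so that only 1 array was above that level. With the mean of all 13 probe sets CD44 missed the fold limit, at a log2 fold change of 0.96. Which CD44 isoforms the dim probe sets read was not examined here.

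**Figure D2:**
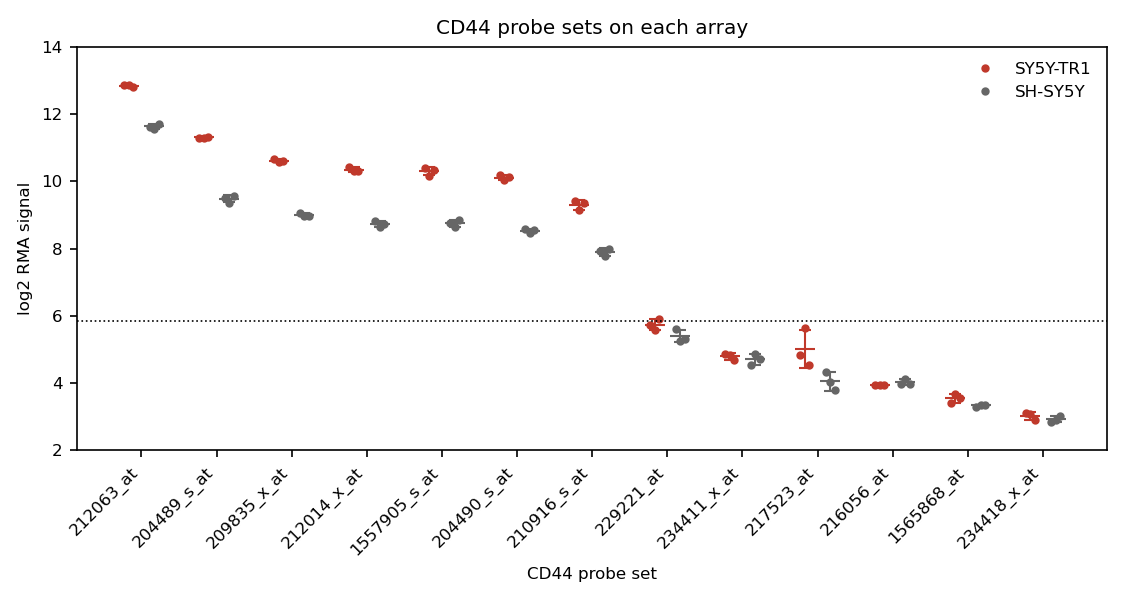
Log2 RMA signal (y axis) of the 13 CD44 probe sets (x axis, from bright to dim) on each array; points stand for single arrays of SY5Y-TR1 (red) and of SH-SY5Y (grey), horizontal and vertical bars give mean and SD, and dots mark the background level (5.83). The 7 brightest probe sets show SY5Y-TR1 above SH-SY5Y, and the 6 others lie around or under the background level in both lines.

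Genes of the hyaluronan system and other CD44 partners moved in both directions. Of 19 measured genes of this list, 5 were higher, 1 was lower and 13 were not called, and the median log2 fold change was 0.08, against 0.04 over all genes. The share called was 31.6%, against 11.4% of all genes and 16.7% of genes above the background level in a line. This list and those below were chosen with earlier results of these arrays known, so their shares are a description. SPP1, which encodes osteopontin, a secreted CD44 ligand, read 8.44, 8.33 and 8.41 in SY5Y-TR1 and 4.83, 4.71 and 4.84 in SH-SY5Y, at least 5.89-fold higher through 1 of its 2 probe sets. CEMIP2 and CEMIP, which take part in hyaluronan breakdown, were higher by 5.35-fold and 3.61-fold (log2 fold changes of 2.42 ± 0.22 and 1.85 ± 0.10, with standard errors). For CEMIP2, 1 of the 3 SH-SY5Y arrays lay under the background level, and for CEMIP 1 of 2 probe sets passed. The hyaluronan synthase HAS3 was 2.11-fold higher through 1 of 2 probe sets, whereas the synthase HAS2 had a log2 fold change of -0.52 and was not called. HMMR, a hyaluronan-binding protein of the mitotic spindle, was the only lower member, at 10.11, 10.01 and 10.04 in SY5Y-TR1 against 12.22, 12.22 and 12.33 in SH-SY5Y. The linker genes EZR and RDX, which tie CD44 to actin, had log2 fold changes of -0.10 and 0.13. ESRP1, a splicing factor for CD44 variant exons, was under the background level on all 6 arrays.

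NT5E, the ectoenzyme that turns extracellular AMP into adenosine and is held by a GPI anchor, had the largest increase of the 10 genes. It read 12.92, 12.81 and 12.89 in SY5Y-TR1, against 9.95, 10.03 and 10.03 in SH-SY5Y. The lines stood far apart relative to the replicate SDs of 0.06 and 0.05. This 7.31-fold increase (log2 fold change 2.87 ± 0.05 with its standard error, limma, adjusted p = 3.51e-08) ranked 166 of 19775 genes from the highest. All 4 NT5E probe sets were higher, at 4.39-fold and 4.65-fold for 1553994_at and 1553995_a_at and at least 7.42-fold for 227486_at, which was under the background level on every SH-SY5Y array.

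No other gene of the extracellular adenosine pathway was called. Of 15 measured genes, limma called 0, and the methods' t-test also called 0, while limma called 11.4% of all genes. As 6 of the 15 were under the background level on all 6 arrays, 0 calls in so short a list say little. By limma 8 of the 15 had an unadjusted p under 0.05. Such a p was common on these arrays, at 11316 of all 19775 genes. Their median log2 fold change was 0.12. Among single probe sets, 1 of 2 for ADORA1, not its brightest, was called higher. ENTPD1 (CD39), which supplies AMP from ATP, averaged 5.75 in SY5Y-TR1 and 6.05 in SH-SY5Y, close to the background level. The adenosine receptor ADORA2B averaged 7.56 in SY5Y-TR1 and 8.22 in SH-SY5Y, a log2 fold change of -0.67. The brightest members were adenosine kinase (ADK), which phosphorylates adenosine inside the cell, and the purine phosphorylase PNP, with log2 fold changes of -0.59 and 0.36.

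THY1, a GPI-anchored immunoglobulin-family protein of neurons and fibroblasts, read 11.09, 10.97 and 11.01 in SY5Y-TR1, against 9.73, 9.65 and 9.73 in SH-SY5Y. Again no array overlapped, and the increase was 2.50-fold (log2 fold change 1.32 ± 0.05 with its standard error, limma, adjusted p = 9.16e-07), and its other 2 probe sets were 2.30-fold and 2.32-fold higher. The 3 GPI-anchored antigens of the set thus split, with NT5E and THY1 higher and CD24 lower. Of 27 measured genes that make or attach the anchor, 1 was higher, 1 was lower and 25 were not called, with a median log2 fold change of 0.02. That is 7.41% called, against 11.4% of all genes. The lower gene was PIGA, part of the first enzyme of the pathway, at 7.44 ± 0.10 in SY5Y-TR1 against 8.72 ± 0.07 in SH-SY5Y (SD, 3 arrays a line). The higher one was the mannosyltransferase PIGV, at 2.13-fold through 2 of 3 probe sets.

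ENG, a co-receptor for TGF-β family ligands, completes the stromal panel. It read 8.73, 8.91 and 8.80 in SY5Y-TR1, against 8.21, 8.20 and 8.01 in SH-SY5Y. The lines did not overlap and the difference passed the p limit, as it did for 52.8% of all genes, but at 1.60-fold it stayed under the fold limit (log2 fold change 0.68, 95% interval 0.50 to 0.85, adjusted p = 0.000197 from limma). The other ENG probe set lay near the background level, at 5.85 ± 0.13 in SY5Y-TR1 against 5.78 ± 0.19 in SH-SY5Y (SD, 3 arrays a line). Among 14 measured ligands, co-receptors and effectors of endoglin, 2 were higher, 2 were lower and 10 were not called (28.6% called, against 11.4% of all genes). TGFBR2, the type II receptor for TGF-β, was 4.82-fold higher and its ligand TGFB1 4.16-fold higher, through 1 of 2 probe sets. SMAD9 and SMAD1, which carry signals of the BMP branch, were 4.39-fold and 2.82-fold lower. In the same list BMPR2, ID3, ID1 and SMAD5 were not called, with log2 fold changes of 0.95, 0.95, 0.13 and -0.05. ACVRL1, the type I receptor that endoglin serves in endothelium, was under the background level on all 6 arrays.

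FAP was measured by 1 probe set, which read 10.01, 9.83 and 9.87 in SY5Y-TR1, against 7.85, 7.65 and 7.75 in SH-SY5Y. The lines did not overlap, with a 4.44-fold higher signal in SY5Y-TR1 (log2 fold change 2.15 ± 0.07, with its standard error). Of the increases among the 10 genes only that of NT5E was larger. None of 8 related prolyl peptidases was called by limma or by the methods' t-test. An unadjusted p under 0.05 from limma was found for 5 of them, and for 11316 of all 19775 genes. The brightest, DPP8 and PREPL, averaged 11.10 and 11.00 in SY5Y-TR1, against 10.60 and 10.63 in SH-SY5Y. Among single probe sets that do not stand for their gene, 1 of 4 for PREPL was called higher and 1 of 3 for PREP lower. DPP4, the closest relative of FAP and a partner of it in the membrane, was under the background level on every array of both lines.

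ALCAM and CD9 were well above the background level and close to equal in the lines. ALCAM read 13.10, 13.17 and 13.17 in SY5Y-TR1, against 13.07, 13.05 and 13.09 in SH-SY5Y. The log2 fold change was 0.07 (95% interval -0.02 to 0.17, adjusted p = 0.185 from limma), and the second probe set, also above the background level on all 6 arrays, gave 0.07 as well. The third, 1569362_at, had a log2 fold change of 0.61 with every SH-SY5Y array under the background level. CD9 read 11.13, 11.04 and 11.02 in SY5Y-TR1, against 11.13, 11.06 and 11.11 in SH-SY5Y. It was the only one of the 10 genes whose lines overlapped (log2 fold change -0.04, 95% interval -0.15 to 0.08, adjusted p = 0.581 from limma). For both genes the interval lies well inside the 2-fold limits. The ALCAM difference lost its sign under centring on housekeeping genes, and that of CD9 with the mean of its probe sets.

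MCAM read 8.26, 8.38 and 8.42 in SY5Y-TR1 and 8.51, 8.44 and 8.58 in SH-SY5Y. The lines lay side by side without overlap, and the log2 fold change of -0.15 did not pass (95% interval -0.30 to -0.01, adjusted p = 0.0723 from limma). A further 4 probe sets name MCAM together with a microRNA gene and were not used. PROM1 was under the background level on all 6 arrays, at 3.09, 2.99 and 3.05 in SY5Y-TR1 and 4.26, 3.55 and 3.77 in SH-SY5Y, so no fold is given. Its arrays did not overlap (log2 fold change -0.82, adjusted p = 0.00484 from limma), but both levels are those of genes taken as background.

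**Figure D3:**
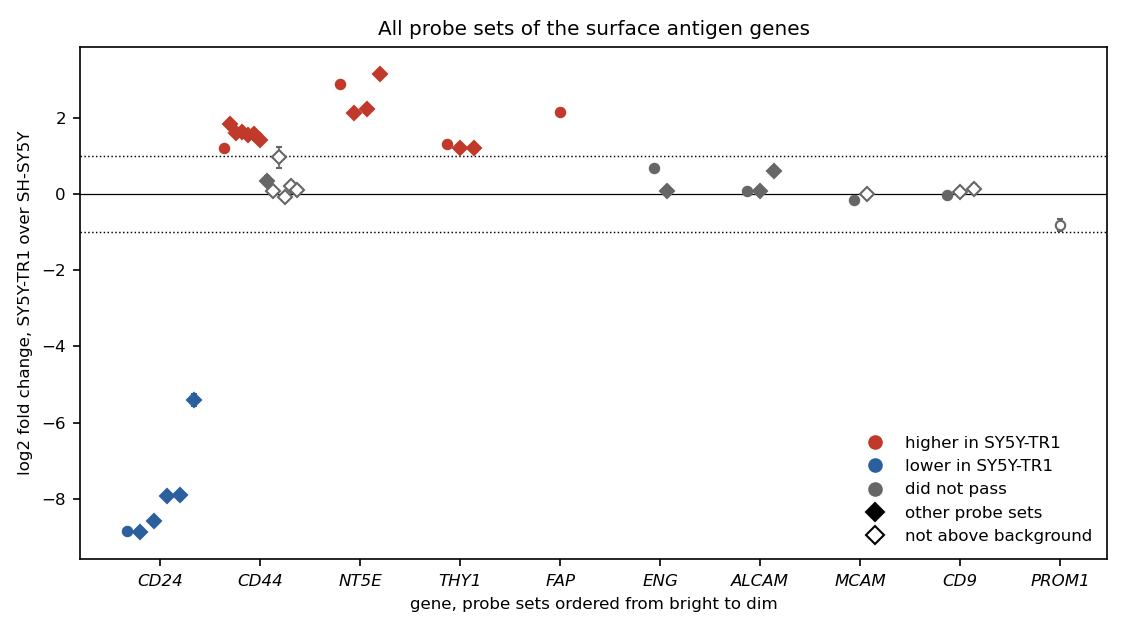
Log2 fold change of SY5Y-TR1 over SH-SY5Y (y axis) for all 38 probe sets of the 10 genes (x axis, ordered from bright to dim within a gene), vertical bars giving the standard error from 3 arrays a line; circles are the brightest probe set of a gene, diamonds the others, open symbols are under the background level on all 6 arrays, colours show the call and dotted lines mark 2-fold. The 6 CD24 probe sets lie between -8.88 and -5.41, and those of NT5E between 2.13 and 3.15.

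Other tetraspanins, the family of CD9, held calls in both directions. Of 31 measured members, 3 were higher, 4 were lower and 24 were not called (22.6% called, against 11.4% of all genes). TSPAN8 averaged 4.09 ± 0.22 in SY5Y-TR1 against 10.83 ± 0.07 in SH-SY5Y (SD, 3 arrays a line), at least 31.8-fold lower. TSPAN13 was 21.8-fold lower (log2 fold change -4.45, standard error 0.04) and TSPAN18 at least 2.34-fold lower. CD82, a tetraspanin known to restrain cell motility, was 2.40-fold higher. TSPAN2 was 2.29-fold higher through 2 of 3 probe sets and TSPAN10 2.14-fold through 1 of 2. CD63 and CD81, which sit with CD9 in extracellular vesicles, had log2 fold changes of 0.59 and 0.45 and were not called.

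Among 12 measured ligands and relatives of THY1, ALCAM and MCAM, 5 were higher, 1 was lower and 6 were not called, and the median log2 fold change was 0.75, against 0.04 over all genes. The share called was 50%, against 11.4% of all genes and 16.7% of genes above the background level in a line. All 12 were above that level on at least 1 array. The list was chosen with earlier results of these arrays known, so its share and median are a description. WNT5A, a ligand linked to MCAM in cell movement, was 4.22-fold higher, the galectin LGALS3 4.08-fold through 1 of 2 probe sets, and the proteoglycan SDC4, a partner of integrins in binding THY1, 2.88-fold. L1CAM, a neural adhesion molecule, was 2.47-fold lower through 1 of 2 probe sets. Of 29 other surface antigens of stromal and neural crest cells, 6 were higher, 5 were lower and 18 were not called (37.9% called). PDGFRB, called higher, and L1CAM, called lower, stand in this list and in the one before, so both are counted in each. CD109, a GPI-anchored protein that binds TGF-β, was 29.2-fold higher with all 3 probe sets passing, from an SH-SY5Y mean of 6.03 that is near the background level, with 1 of 3 SH-SY5Y arrays under it. LRRC15, a surface protein of activated fibroblasts, was at least 8.30-fold higher through 1 of 2 probe sets, and the adhesion receptor VCAM1 at least 1.42-fold higher, with the bound set by the background level. CD200, an immunoglobulin-family protein of neurons, was at least 7.86-fold lower, and PDGFRA, a receptor of mesenchymal progenitors, 4.44-fold lower through 1 of 4 probe sets. ST8SIA1, which makes the ganglioside GD3, was called lower through 1 of 2 probe sets, at 3.89 ± 0.39 in SY5Y-TR1 against 5.82 ± 0.15 in SH-SY5Y (SD, 3 arrays a line), but both means lie under the background level, so that no fold is given. The nerve growth factor receptor NGFR (CD271) and the proteoglycan CSPG4 (NG2), further stromal and neural crest antigens, were under the background level in both lines.

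**Figure D4:**
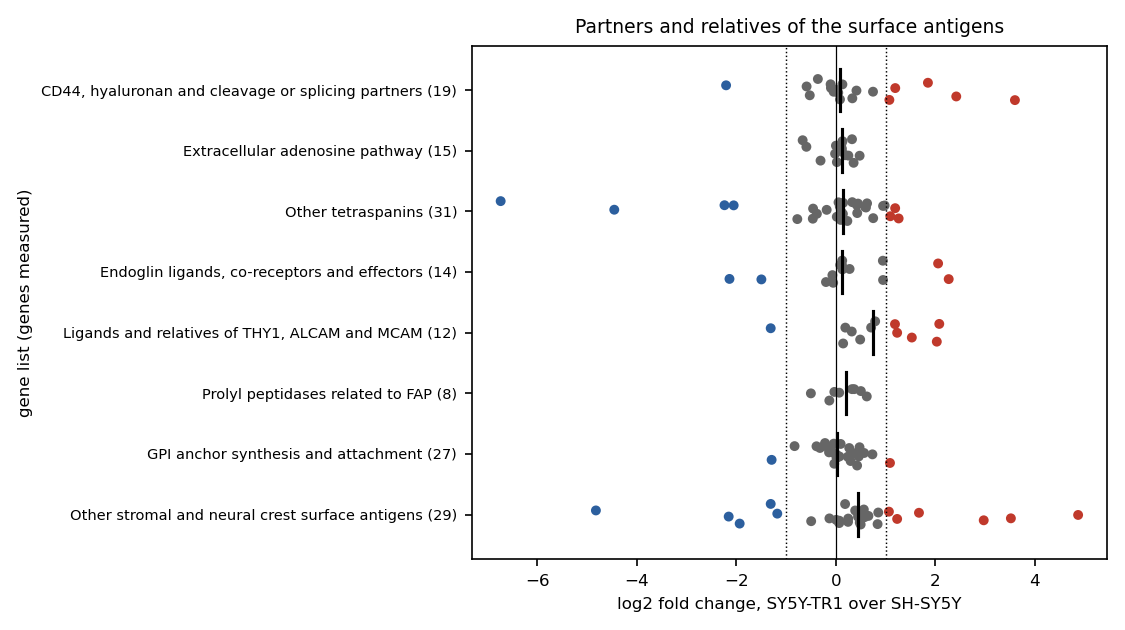
Log2 fold change of SY5Y-TR1 over SH-SY5Y (x axis) of each measured gene of 8 lists of partners and relatives (y axis, number measured in brackets); points are genes, red called higher, blue called lower and grey not called, a black bar gives each list's median and dotted lines mark 2-fold. The short adenosine and prolyl peptidase lists hold no called gene, while 11.4% of all genes were called, and TSPAN8 lies furthest to the left at -6.73.

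Markers of other cells were read beside these antigens. Noradrenergic NB markers were present in both lines in part. Of 10 measured markers 7 were lower in SY5Y-TR1 and none was higher, while over all genes 5.99% were lower. DDC, an enzyme of catecholamine synthesis, averaged 4.77 in SY5Y-TR1 against 11.31 in SH-SY5Y, at least 44.4-fold lower and under the background level on every SY5Y-TR1 array. The granins CHGB and CHGA were lower with log2 fold changes of -4.17 and -3.69, and DBH, which makes noradrenaline, was 8.59-fold lower through 1 of 2 probe sets. In SY5Y-TR1 all 3 were near the background level. CHGB was above it on 2 of the 3 arrays, and CHGA and DBH averaged 6.42 and 6.16. The transcription factors PHOX2A, GATA2 and GATA3, also lower, and ISL1 and HAND2, not called, stayed above the background level on all 6 arrays, and TH was under it on all 6. The summed linear signal of all 10 measured noradrenergic markers ranged from 4779 to 4976 in SY5Y-TR1 and from 19379 to 20224 in SH-SY5Y. Of 9 blood cell markers none was called by limma or the methods' t-test, while limma called 11.4% of all genes. By limma 2 of the 9 had an unadjusted p under 0.05, against 11316 of all 19775 genes. Under the background level on all 6 arrays were 6 of the 9, PTPRC (CD45) and CD14 included. CD34 averaged 6.59 in SY5Y-TR1 and 6.42 in SH-SY5Y, and CD79A 6.26 in SY5Y-TR1 and 6.13 in SH-SY5Y, above that level on every array, while ITGAM was above it on the 3 SY5Y-TR1 arrays only. The summed blood cell signal was 372 to 380 in SY5Y-TR1 and 336 to 349 in SH-SY5Y. Of 7 Schwann cell markers none was called by either test, and 0 had an unadjusted p under 0.05. SOX10 averaged 6.18 in SY5Y-TR1 and 6.11 in SH-SY5Y, and ERBB3 6.02 in SY5Y-TR1 and 5.88 in SH-SY5Y, both near the background level, and the summed Schwann cell signal was 274 to 300 in SY5Y-TR1 and 269 to 295 in SH-SY5Y. Of 10 endothelial markers 1 was higher, ROBO4 at least 3.91-fold through 1 of 2 probe sets. That is 10% called, close to the 11.4% of all genes. Another 7, with CDH5, KDR, VWF and TEK among them, were under the background level on all 6 arrays. The summed endothelial signal was 501 to 512 in SY5Y-TR1 and 267 to 303 in SH-SY5Y, and ROBO4, with 7.80 on the log2 scale in SY5Y-TR1 against 5.19 in SH-SY5Y, made up most of that difference. The part of any such cells in the antigen values was not tested.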

How the data were processed

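Total RNA of SY5Y-TR1 (3 arrays) and SH-SY5Y (3 arrays) was measured on Affymetrix expression arrays. The values are log2 signals that the authors computed by RMA with Affymetrix Expression Console, of which no version is named in the labels. RMA removes background, gives all arrays 1 distribution and merges the probes of a probe set, and scanner signals were not used here. Probe sets were named through the platform annotation. After 62 control probe sets were left out, 54613 remained, of which 41091 had 1 symbol, 1801 several and 11721 none, and 19775 genes were represented by their probe set with the highest mean. The comparison used lmFit and eBayes of limma 3.58.1 (R 4.3.3) on all genes, without a replicate block, and probe set calls come from a fit to all 54613. The fit was tested on simulated data. The limits of 2-fold and an adjusted p under 0.05 follow the study's heatmap legend. As background level served percentile 90 of the signals, averaged over arrays, of 37 measured genes of unrelated tissues, 4 of which lie above it. The 10 genes and all lists were chosen with earlier results of these data known. Named genes are the 10 members, up to 3 called increases and 3 decreases of each list (the 2 brightest genes where none was called), and the 5 genes most like CD24. Many further list genes were named after their values were seen. Promoter windows come from RefSeq (GRCh38.p14). Alternatives covered the probe sets taken per gene (their mean, or none with shared-sequence names), the scale (housekeeping centring, a further quantile normalization), dim genes (filtered, or floored at background), the fit (replicate block, trended variance, the methods' t-test), omission of single arrays, and other limits (1.5-fold, adjusted p under 0.01).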

Additional observations from a re-analysis of the deposited data

How the results depend on the processing

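Of 270 comparisons of a result with an alternative, over 17 alternatives, 261 stayed as they were, which means the same direction and side of the limits for a difference and within 1.5 times for a count. With the mean of all probe sets CD44 was no longer called (log2 fold change 0.96), which left 3 genes higher and 1 lower, and CD9, not called in either form, turned to 0.048. Centring on 21 housekeeping genes, which shifts every difference by -0.08, turned ALCAM, also not called, to -0.0088. With a fold limit of 1.5, ENG (log2 fold change 0.68) was called higher and PROM1 (-0.82), under the background level in both lines, lower, so that 2 of the 10 genes were lower. That limit called 2171 genes higher and 2162 lower in place of 1060 and 1185, and 37 genes of the partner lists higher in place of 21. With values raised to the background level PROM1 had none left to compare, CD24 had a log2 fold change of -7.32, and 10 genes of the partner lists were lower in place of 13. Without any 1 of the arrays, 4 genes stayed higher and 1 lower throughout, CD24 ranged from -8.88 to -8.80, CD44 from 1.17 to 1.25, NT5E from 2.84 to 2.90, THY1 from 1.29 to 1.35 and FAP from 2.10 to 2.20. The replicate numbers are not said to pair the cultures, and the deviations of same-numbered arrays had correlations of 0.0002 to 0.03. With the replicate number as a block, 1060 genes were higher and 1185 lower, as without it, and 4 and 1 of the 10 genes. With equal arrays in every block the fold changes cannot move, so these counts say little about stability. The same holds for the trended variance, the adjusted p limit of 0.01 and the methods' t-test. They too leave each fold change as it was, and the fold decided the calls.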
